A study of Homo sapiens with 6 samples.

Results

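Long non-coding RNAs and the host genes of microRNAs and snoRNAs were followed across knockdown of MYEOV, a gene named for its overexpression in myeloma, in A549, an established human lung adenocarcinoma cell line. The rule that chose the members reads their symbols and no measured value, although it was drawn up with earlier results of these data known: LINC or SNHG followed by digits, a symbol ending in -AS1, -AS2 or -IT1, a MIR...HG symbol, or MALAT1, NEAT1, H19, GAS5 or PVT1. The rule found 977 genes, on 1097 rows, among the 14884 genes with a named row. They comprised 458 LINC genes, 463 antisense RNAs, 25 intronic transcripts, 20 microRNA host genes, 10 snoRNA host genes (9 SNHG genes and GAS5) and MALAT1. RefSeq types 971 of them as lncRNA and the other 6 as antisense RNA. Rows for NEAT1, H19 and PVT1 were not analysed here.

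Total RNA was taken 48 h after transfection, and each of the 3 groups (control siRNA, MYEOV siRNA 1, MYEOV siRNA 2) held 2 Affymetrix whole-transcript arrays. All groups were cultured in the same serum-containing medium and received a lipid-transfected siRNA, so no untransfected cells were compared. The sources used here give neither the sequences of the 3 siRNAs nor any target of the control siRNA. Nothing in the labels says that replicate arrays came from separate transfections, so p-values measure only how far these arrays differ, and that spread may be technical. Because whole cultures were assayed, fewer cells of a kind and less RNA per cell cannot be told apart. Values are log2 signals made by RMA, so levels of different genes are not set against each other, and differences of dim transcripts are compressed towards 0.

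A long non-coding RNA is transcribed and usually spliced like a messenger RNA but is not known to encode a protein. An antisense RNA runs on the strand opposite a coding gene and often shares its promoter region, while an intronic transcript lies inside one. MicroRNA host genes carry a hairpin that is cut out of the primary transcript, and the mature microRNA then represses messenger RNAs that match its seed, bases 2 to 8. SNHG genes carry snoRNAs, guides of ribosomal RNA modification, in their introns, and their spliced RNA is degraded by nonsense-mediated decay. MALAT1 is an abundant nuclear RNA of speckles named for its link to metastasis in lung adenocarcinoma.

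Of the host genes, 3 stood above background in the control arrays, MIR31HG, MIR22HG and MIR550A3HG. Mature microRNAs of these hosts are shown because a host and its microRNA are read by separate rows of the array. The hairpin rows MIR31 and MIR550A3 were below background while their hosts were above it, and MIR22 was not analysed here. The 5 mature sequences, from RefSeq on GRCh38.p14 and all on the minus strand, have their seeds in capitals and share none of the 5 seeds.
hsa-miR-31-5p (chr9:21512158-21512178): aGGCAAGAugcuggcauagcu
hsa-miR-22-3p (chr17:1713914-1713935): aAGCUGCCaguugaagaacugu
hsa-miR-22-5p (chr17:1713952-1713973): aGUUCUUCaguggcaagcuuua
hsa-miR-550a-3p (chr7:29680748-29680769): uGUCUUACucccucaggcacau
hsa-miR-550a-3-5p (chr7:29680789-29680808): aGUGCCUGagggaguaagag

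The targeted gene, MYEOV, was read first. Its 2 control arrays read 6.20 and 6.50, those of siRNA 1 read 5.34 and 5.19, and those of siRNA 2 read 5.23 and 4.70. All 4 siRNA arrays lay below both control arrays and were not above background. The log2 difference from control was -1.09 for siRNA 1 (limma with Benjamini-Hochberg adjustment, adjusted p = 0.0215) and -1.39 for siRNA 2 (adjusted p = 0.00516). MYEOV reached the mean of 5.45 that the test required only through its control arrays (group means 6.35, 5.27 and 4.96). The siRNA 1 call was lost when any control or siRNA 1 array was left out and when genes of every level were tested (adjusted p = 0.135), and the siRNA 2 call was kept in all 15 alternatives. Of 12 markers of a lung epithelial line, 5 had a named row, and KRT8, KRT18, KRT7 and EPCAM were above background on all 6 arrays, while KRT19 was not. Of 14 markers of leukocytes, endothelium, fibroblasts, red cells and hepatocytes, 6 had a named row and 0 were above background, with array values between 1.60 and 5.34.

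Most members gave no signal above background in these cells. Background was the 95th percentile of 85 rows of KRTAP genes, which encode hair keratin-associated proteins, taken within each array, and it lay between 5.69 and 6.02. In both control arrays, 76 of 977 members (7.78%) exceeded it, against 6234 of the 14884 named genes (41.9%). All 6 arrays were above background for 70 members, and no array was for 871. The classes differed in this count. LINC genes had 33 of 458 above background (7.21%), antisense RNAs 30 of 463 (6.48%), microRNA hosts 3 of 20 and intronic transcripts 0 of 25. Among the snoRNA hosts, 9 of 10 were above background, the exception being SNHG18, whose arrays ran from 3.21 to 3.68. MALAT1 was above background on every array.

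**Figure D1:**
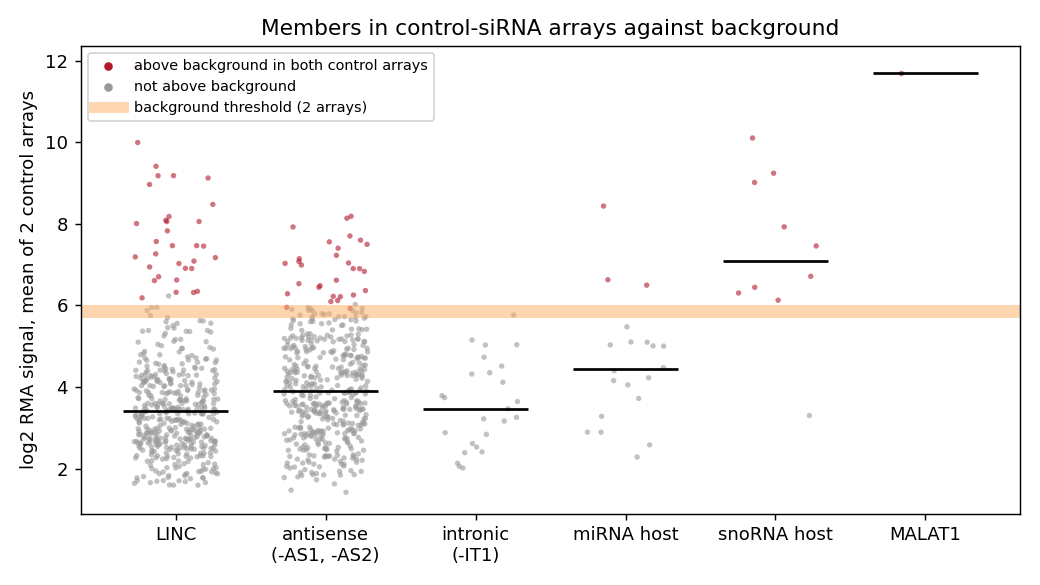
Each point is 1 member, placed by class on the horizontal axis and by its log2 RMA signal, as the mean of the 2 control arrays, on the vertical axis. Red points were above background in both control arrays (76 of 977), black lines are class medians, and the orange band spans the background thresholds of the control arrays; the snoRNA hosts and MALAT1 lie mostly above the band and the other classes mostly below it.

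Changes were tested for the 126 members (12.9%) whose mean over the 6 arrays reached 5.45, the median of all named genes: 68 antisense RNAs, 43 LINC genes, 9 snoRNA hosts, 4 microRNA hosts, MALAT1 and the intronic transcript GABPB1-IT1. The other 851 members were not tested. Of the 126, 17 had at least 1 group mean under 5.45 and 5 had 2, so these entered the test through the groups in which they read higher. Every p-value was adjusted over all 7442 genes tested, and a member was called at an adjusted p under 0.05. With 2 arrays against 2 an exact permutation test cannot give a p below 0.333, so each call rests on the spread that limma shares between genes. The comparisons of the 2 siRNAs with control share their control arrays.

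With siRNA 1, 4 of 126 tested members were called, where 4.66% of all genes tested were: LINC00294 rose, and MIR31HG, WAC-AS1 and PRR7-AS1 fell. With siRNA 2, 8 were called, where 6.83% of all genes were: LINC00294 rose, and LINC01963, TMEM147-AS1, TGFB2-AS1, LINC00265, LINC00674, LINC00999 and LINC01347 fell. The members' shares, 3.17% and 6.35%, were near these backgrounds. By direction, 1 member was called higher with siRNA 1 (background 2.28%) and 3 lower (2.38%), and 1 was called higher with siRNA 2 (2.59%) and 7 lower (4.23%). Of the 11 members called with either siRNA, LINC00294 was called with both and in the same direction.

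The groups' arrays did not overlap for 54 members with siRNA 1 (42.9%, all genes 48.8%) and for 68 with siRNA 2 (54.0%, all genes 50.6%). The median log2 difference of the tested members was -0.04 with siRNA 1 and -0.06 with siRNA 2, beside -0.0027 and 0.00054 over all genes tested. Values below 0 made up 60.3% and 65.9% of members, and 50.8% and 49.8% of all genes. For the mean of both siRNAs against control, 4 members were called (background 5.42%), LINC00294 higher (2.55% of all genes) and MIR31HG, TMEM147-AS1 and LINC01963 lower (2.86%). In that comparison LINC01963 was lost on leaving out any array but siRNA 1 replicate 2, and TMEM147-AS1 on leaving out either control array or replicate 1 of either siRNA. Groups did not overlap for 24 members in that comparison (19.05%, all genes 22.9%).

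**Figure D2:**
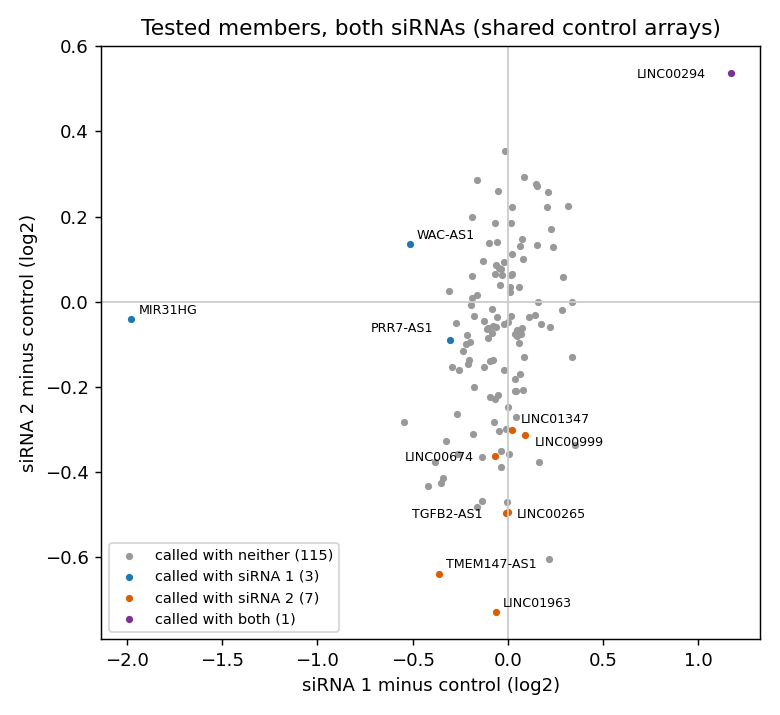
Each point is 1 of the 126 tested members, with its log2 difference from control for siRNA 1 on the horizontal axis and for siRNA 2 on the vertical axis; colours mark calls, and both axes share the same control arrays. MIR31HG lies far to the left at a siRNA 2 value near 0, LINC00294 lies alone at the upper right, and the members called with siRNA 2 alone lie low, at siRNA 1 values from -0.36 to 0.09.

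Where a replicate number was fitted as a block, 8 of the 126 members were called with siRNA 1, where 5.64% of all genes tested were. With siRNA 2, 16 of the 126 were called, where 9.43% of all genes were, and for the mean 10, where 7.14% were. All calls above were kept. The added members were PCNA-AS1, RPL26L1-AS1, SNHG16 and TMEM147-AS1 for siRNA 1, all lower. For siRNA 2 they were ATP2A1-AS1, GABPB1-AS1, HIF1A-AS2, KTN1-AS1, LINC00842, LINC00938, LINC01061 and RPL26L1-AS1. With every named gene tested and no filter on level, the calls of MIR31HG and LINC00294 for siRNA 1 were kept and the others above were lost, except that of MIR31HG for the mean; of all genes, 0.262%, 0.934% and 0.175% were then called with siRNA 1, with siRNA 2 and for the mean. Fits on the 2 groups compared alone called 2 members with siRNA 1 and 3 with siRNA 2.

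MIR31HG gave the largest change of any member. It is the host gene of miR-31, a microRNA studied in invasion and in lung cancer, and spans chr9:21454268-21559798 (GRCh38.p14) at 9p21. Its signals were 8.51 and 8.36 in control cells, 6.56 and 6.36 after siRNA 1, and 8.44 and 8.35 after siRNA 2. Both siRNA 1 arrays were far below the other 4, which ran from 8.35 to 8.51, and all 6 were above background. The difference from control was -1.98 ± 0.09 (SE, n = 2 and 2, limma adjusted p = 0.000467) with siRNA 1, and -0.04 ± 0.09 (adjusted p = 0.855; 95% interval -0.26 to 0.18) with siRNA 2. Tested directly, siRNA 1 and siRNA 2 differed by -1.94 (limma adjusted p = 0.000144). The siRNA 1 call was kept in all 17 alternatives tried, with values from -2.07 to -1.88. It was also the most negative siRNA 1 difference among all 7442 genes tested.

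The miR-31 hairpin, the source of the miR-31-5p sequence printed above, has a row of its own. MIR31 read 4.62 and 4.84 on the control arrays against 3.83 and 4.47 (siRNA 1) and 4.72 and 4.05 (siRNA 2). It was not above background on any array and was not tested, and its siRNA 2 arrays overlapped those of siRNA 1. RNA prepared for whole-transcript arrays need not carry the mature microRNA, so this row gives no level for it.

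The fall of MIR31HG was not shared by a call of any other tested gene of 9p21. Of 13 genes listed for the region, 8 had a named row and 5 were tested, and MIR31HG was the only one of the 5 called in any comparison. KLHL9, an adaptor of a ubiquitin ligase and the nearest named coding gene, ran from 7.89 to 8.24 over the 6 arrays. FOCAD, which encodes focadhesin, ran from 8.68 to 9.01 over the 6 arrays. MTAP, an enzyme of methionine salvage, ran from 5.84 to 6.09, close to the background thresholds of 5.69 to 6.02. DMRTA1, also tested, ran from 5.28 to 5.78 and was not above background on any array. Differences of such dim signals are compressed towards 0. The tumour suppressor CDKN2A, between 2.90 and 3.50, and CDKN2B-AS1, the antisense member of the locus known as ANRIL, between 1.89 and 2.42, were below background on all arrays. A549 is known to carry a deletion of CDKN2A.

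**Figure D3:**
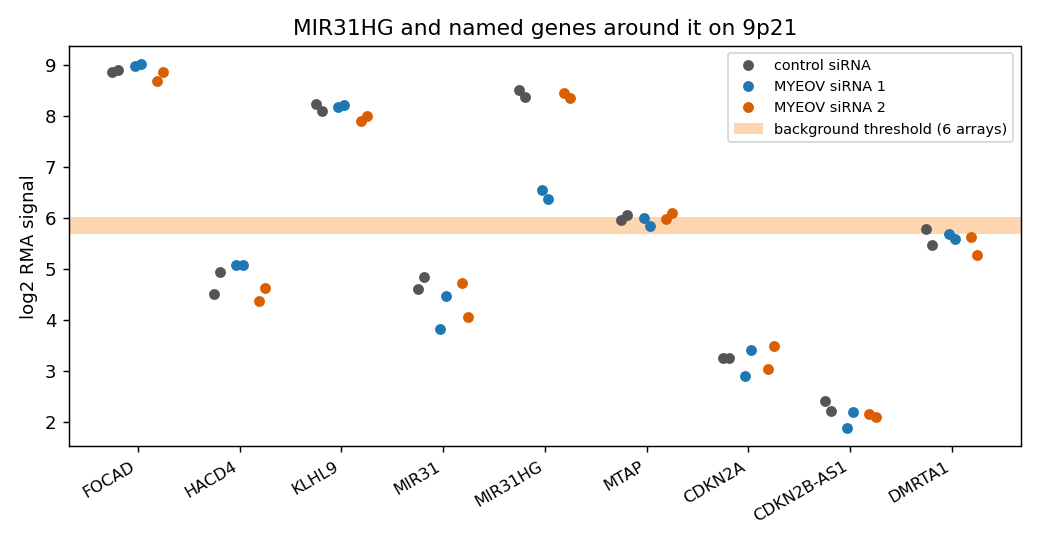
Points are the log2 RMA signals of the 6 arrays (2 per group, coloured by group) for MIR31HG, the MIR31 hairpin and 7 other named genes of 9p21, and the orange band spans the background thresholds of the 6 arrays. MIR31HG alone shows the siRNA 1 arrays (6.36 and 6.56) far below the other 4 (8.35 to 8.51).

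Of 5 reported miR-31 targets with a tested row, MET, a receptor kinase, was called higher with siRNA 1 (0.35, adjusted p = 0.0325; lost on leaving out any 1 of the 6 arrays) and measured 0.25 higher with siRNA 2 (adjusted p = 0.065). RDX, the cytoskeletal linker radixin, measured 0.45 and 0.46 (adjusted p = 0.175 and 0.152) and was called with both siRNAs under the replicate block (0.0483 and 0.0359). DKK1, a secreted Wnt inhibitor, measured 0.03 with siRNA 1 and fell with siRNA 2 (-0.91, adjusted p = 0.00121). All 5 had siRNA 1 values above 0, with a median of 0.09, where 3664 of the 7442 genes tested were above 0. With siRNA 2, where MIR31HG measured -0.04, their median was 0.05. At an unadjusted limma p under 0.05 there were 2 of the 5 with siRNA 1 (19.2% of all genes) and 3 with siRNA 2 (22.2% of all genes). A link of these values to MIR31HG was not tested.

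The remaining microRNA hosts did not pass the test. MIR22HG, the host of the tumour-suppressive miR-22, read 6.72 and 6.54 with control siRNA, 6.50 and 6.40 under siRNA 1, and 6.67 and 6.53 under siRNA 2. MIR550A3HG read 6.62 and 6.37, then 6.45 and 6.55, then 6.46 and 6.05. MIR181A1HG ran from 5.21 to 5.74. The siRNA 1 arrays of MIR22HG lay below both its control arrays (-0.18, adjusted p = 0.359), and in the other comparisons of these 3 hosts with control the arrays overlapped. MIR17HG, host of the miR-17-92 cluster, stayed between 3.83 and 4.60, below background. Of 5 tested targets reported for that cluster, PHLPP2, an AKT phosphatase, was called higher with siRNA 2 (0.36, adjusted p = 0.0457) and CCN2, a secreted matrix protein, lower (-0.67, adjusted p = 0.0233). The PHLPP2 call was lost without any 1 of the 6 arrays, and that of CCN2 without control replicate 2 or either siRNA 2 array. The CCN2 value comes from the higher of 2 rows, and with its rows averaged CCN2 was not tested. With siRNA 1 limma called 0 of the 5, and 3 had an unadjusted p under 0.05 (19.2% of all genes). With siRNA 2, 4 of the 5 had such a p (22.2% of all genes). Of listed proteins that process, regulate or act with microRNAs, 7 were tested. The miRNA-maturation inhibitor LIN28B alone was called, with siRNA 2 (-0.98, limma adjusted p = 0.00245). LIN28B entered the test through its control and siRNA 1 means (6.11 and 6.01), its siRNA 2 mean of 5.12 being under the filter. At an unadjusted limma p under 0.05 there were 0 of the 7 with siRNA 1 (19.2% of all genes) and 5 with siRNA 2 (22.2% of all genes). Their medians were -0.07 and -0.22.

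LINC00294 was the 1 member called higher than control. Its signals were 7.33 and 7.60 in control cells, 8.62 and 8.65 after siRNA 1, and 7.94 and 8.06 after siRNA 2. The 3 groups did not overlap, and siRNA 1 was highest. The rise was 1.17 ± 0.10 with siRNA 1 (SE, n = 2 and 2, limma adjusted p = 0.00215) and 0.54 ± 0.10 with siRNA 2 (adjusted p = 0.0254), and the siRNAs differed by 0.63 (adjusted p = 0.0113). The siRNA 1 call was kept in all 17 alternatives, and the siRNA 2 call in 10. Leaving out any array other than control replicate 2 ended the siRNA 2 call.

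The coding gene before LINC00294 on chromosome 11, TCP11L1, lies on the same strand and ends 2586 bases before it. TCP11L1 read 6.43 and 6.53 on the control arrays against 7.19 and 7.32 (siRNA 1) and 6.78 and 6.75 (siRNA 2). Its groups stood in the same order as those of LINC00294 and did not overlap. It rose by 0.78 with siRNA 1 (limma adjusted p = 0.00366), measured 0.29 with siRNA 2 (adjusted p = 0.0761) and differed by 0.49 between the siRNAs (adjusted p = 0.00979; lost without siRNA 1 replicate 2 or either siRNA 2 array). CSTF3-DT, on the other side of LINC00294, was below background between 2.79 and 3.66.

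WAC-AS1 and PRR7-AS1 fell with siRNA 1. WAC-AS1, transcribed away from the gene of the nuclear adaptor protein WAC, read 6.77 and 6.90 with control siRNA, 6.43 and 6.20 under siRNA 1, and 6.90 and 7.04 under siRNA 2. The siRNA 1 arrays were below all others (-0.52 ± 0.10, limma adjusted p = 0.0383), and siRNA 1 differed from siRNA 2 by -0.65 (adjusted p = 0.00964). WAC itself, whose start lies 425 bases from that of WAC-AS1 on the opposite strand, ran from 7.36 to 7.55 over all arrays, with differences of -0.03 and 0.04.

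PRR7-AS1 read 6.12 in both control arrays, 5.82 in both siRNA 1 arrays, and 6.02 and 6.04 with siRNA 2, and 5 of its arrays were above background. Its 3 groups did not overlap (siRNA 1 -0.30 ± 0.06, limma adjusted p = 0.0479). PRR7, its partner, a membrane adaptor of T cells and synapses, measured -0.05 with siRNA 1. Both siRNA 1 calls, of WAC-AS1 and of PRR7-AS1, were lost on leaving out any 1 of the 6 arrays.

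The members that fell with siRNA 2 were led by LINC01963. It read 6.90 and 6.92 in control cells, 6.73 and 6.97 after siRNA 1, and 6.15 and 6.21 after siRNA 2. Both siRNA 2 arrays were below the other 4 (-0.73 ± 0.09, limma adjusted p = 0.00515), and the siRNAs differed by 0.67 (adjusted p = 0.00642). Leaving out any array kept this call. Of its named neighbours, XRCC5, which encodes the DNA repair protein Ku80, measured -0.09 with siRNA 2 (adjusted p = 0.572), and RPL37A, a ribosomal protein gene 278651 bases away, was not above background on any array.

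TMEM147-AS1, which overlaps the 5′ part of TMEM147, a membrane protein gene, fell with siRNA 2 from 7.38 and 7.42 to 6.68 and 6.85, and read 6.92 and 7.16 with siRNA 1. All 4 siRNA arrays were below both control arrays. Differences were -0.64 ± 0.10 with siRNA 2 (limma adjusted p = 0.0134) and -0.36 with siRNA 1 (adjusted p = 0.103; with the replicate block 0.0485). The siRNA 2 call was lost without control replicate 1, control replicate 2 or siRNA 2 replicate 1. TMEM147 stayed between 10.34 and 10.46. The strand that each row reads is not stated in the sources used here, so signal of an antisense RNA and of an overlapping gene cannot be told apart where they overlap.

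TGFB2-AS1 begins inside the gene of the growth factor TGFB2, on the opposite strand. It read 5.83 and 5.61 on the control arrays against 5.68 and 5.73 (siRNA 1) and 5.29 and 5.16 (siRNA 2). None of its 6 arrays was above background, so its fall with siRNA 2 (-0.49 ± 0.09, limma adjusted p = 0.0242) is a difference between dim signals, and its siRNA 2 mean, 5.22, was under the filter. TGFB2 was not analysed here. RRP15, a ribosome biogenesis gene 6212 bases away, read 8.42 and 8.41, then 8.42 in both siRNA 1 arrays, then 8.03 and 7.94 with siRNA 2 (-0.43, adjusted p = 0.0139; lost without either control array or siRNA 2 replicate 2).

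LINC00265, LINC00674, LINC00999 and LINC01347 also fell with siRNA 2 and were measured by several rows each. LINC00265 read 8.13 and 7.98 with control siRNA, 7.96 and 8.15 under siRNA 1, and 7.48 and 7.65 under siRNA 2 (-0.49 ± 0.10, limma adjusted p = 0.0348). Its rows disagreed: one further row measured 0.02 with siRNA 2, and another, dim row -0.99. LINC00674 read 8.03 and 8.08, then 7.98 and 7.99, then 7.66 and 7.72 (-0.36 ± 0.07, adjusted p = 0.0242), and its second row measured -0.29. For both genes the siRNA 2 arrays were the lowest of the 6.

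LINC00999 read 9.37 and 9.45 in control cells, 9.53 and 9.48 after siRNA 1, and 9.11 and 9.08 after siRNA 2 (-0.31 ± 0.07, limma adjusted p = 0.0449). LINC01347 read 10.00 and 9.98, then 10.01 in both, then 9.73 and 9.65 (-0.30 ± 0.07, adjusted p = 0.0472). All 4 rows of LINC00999 and all 6 of LINC01347 had siRNA 2 values below 0, from -0.49 to -0.18 and from -0.40 to -0.14. With the rows of a gene averaged, however, the siRNA 2 calls of LINC01347 (-0.29, adjusted p = 0.0743) and LINC00674 (-0.33, adjusted p = 0.0657) were lost, and those of LINC00999 (-0.36, adjusted p = 0.0262) and LINC00265 (-0.49, adjusted p = 0.0156) were kept. Leaving out any 1 array ended the siRNA 2 calls of LINC00674, LINC00999 and LINC01347. For LINC00265 any control or siRNA 2 array did so, and for TGFB2-AS1 any array except control replicate 2.

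**Figure D4:**
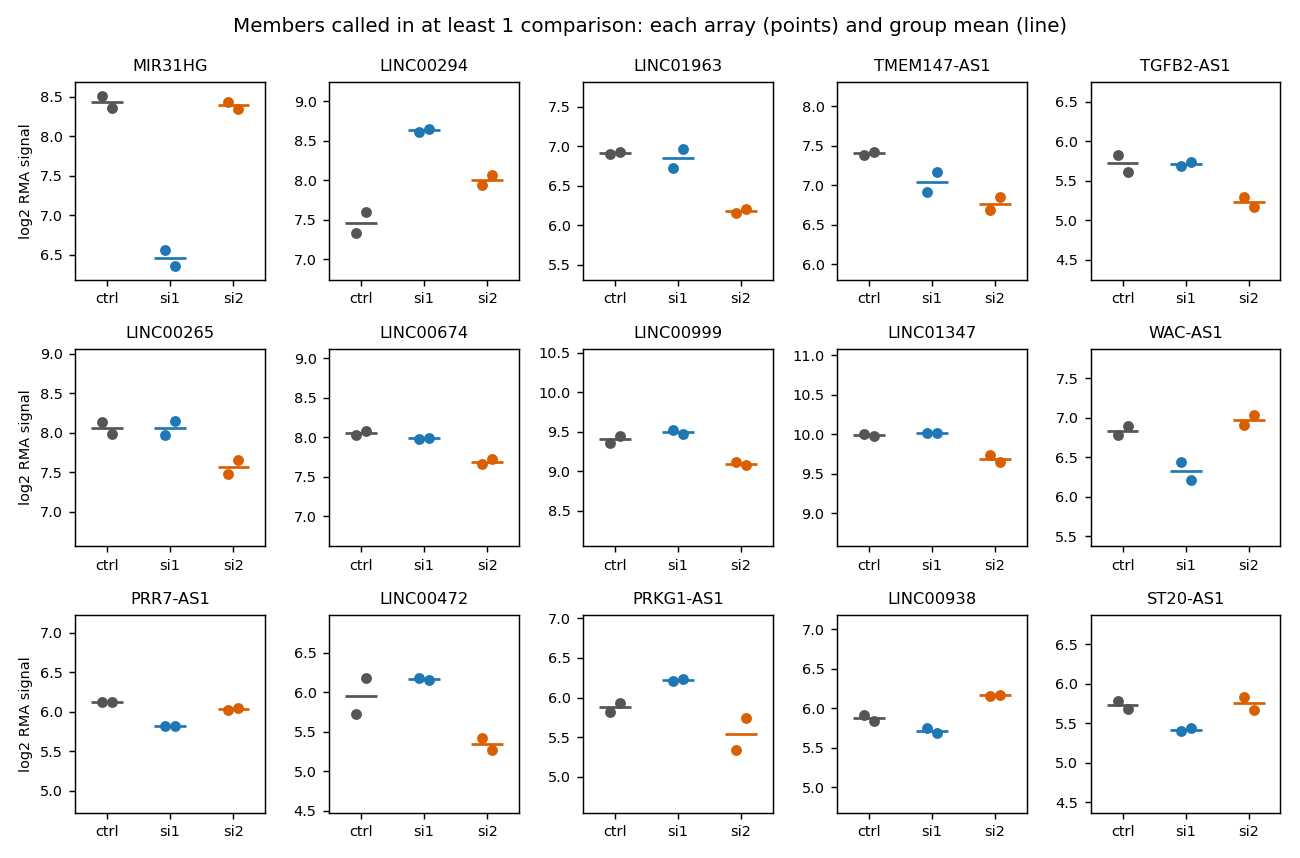
Each panel shows 1 of the 15 members called in at least 1 of the 4 comparisons, with points for the 2 arrays of the control (ctrl), siRNA 1 (si1) and siRNA 2 (si2) groups and a line at the group mean; vertical axes are log2 RMA signal over the same number of units in every panel. MIR31HG (8.51 and 8.36 against 6.56 and 6.36) and LINC00294 show the widest separations, and the other panels show differences below 1.

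The siRNAs were then compared with each other. Of the 126 tested members, 13 were called (10.3%), 9 higher with siRNA 1 and 4 lower, where 9.15% of all genes were called, 5.37% higher and 3.78% lower. Groups did not overlap for 65 members (51.6%, all genes 54.5%). With the replicate block 20 of the 126 were called, where 12.4% of all genes were. Averaging rows ended the calls of LINC00999 (0.23, adjusted p = 0.0926), LINC01347 (0.28, adjusted p = 0.072) and LINC00674 (0.27, adjusted p = 0.0974). Beside members already described, LINC00472, PRKG1-AS1, LINC00938 and ST20-AS1 differed between the siRNAs without a call against control. All 4 were dim, with at most 3 of 6 arrays above background, and LINC00472 with siRNA 2 (5.34) and ST20-AS1 with siRNA 1 (5.42) had group means under the filter.

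LINC00472, a LINC gene studied in breast cancer, read 5.72 and 6.18 on the control arrays against 6.18 and 6.15 (siRNA 1) and 5.43 and 5.26 (siRNA 2). The control arrays were far apart, and siRNA 2 was lowest (siRNA 1 minus siRNA 2 0.82 ± 0.14, limma adjusted p = 0.0159). ST20-AS1 read 5.78 and 5.67, then 5.40 and 5.43, then 5.83 and 5.67, and was not above background on any array (-0.34, adjusted p = 0.0495). The ST20-AS1 call was lost on leaving out any 1 array, and that of LINC00472 without either siRNA 1 array or siRNA 2 replicate 2.

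LINC00938 read 5.92 and 5.84 with control siRNA, 5.75 and 5.68 under siRNA 1, and 6.16 and 6.17 under siRNA 2. Its 3 groups did not overlap (siRNA 1 minus siRNA 2 -0.45, limma adjusted p = 0.00979). ANO6, a calcium-activated lipid scramblase and the named gene before it, moved the other way, from 11.39 and 11.41 in the control arrays and 11.45 and 11.41 with siRNA 1 to 10.55 and 10.51 with siRNA 2 (-0.87 against control, adjusted p = 0.00062). The gap between the genes is 285315 bases. Against control, LINC00938 measured 0.29 with siRNA 2 (adjusted p = 0.0578; with the replicate block 0.0463). Its call between the siRNAs was lost without siRNA 1 replicate 2 or either siRNA 2 array.

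PRKG1-AS1 shares a promoter region with DKK1, and both were lower with siRNA 2 than with siRNA 1. PRKG1-AS1 read 5.82 and 5.93 in control cells, 6.21 and 6.24 after siRNA 1, and 5.34 and 5.74 after siRNA 2. Both siRNA 1 arrays were highest and both siRNA 2 arrays lowest (siRNA 1 minus siRNA 2 0.69 ± 0.13, limma adjusted p = 0.0194), with differences from control of 0.35 (adjusted p = 0.186) and -0.34 (adjusted p = 0.179). DKK1 read 9.91 and 10.07, then 9.99 and 10.04, then 9.04 and 9.12, so that its control and siRNA 1 arrays overlapped (siRNA 1 minus siRNA 2 0.94, adjusted p = 0.000839). The PRKG1-AS1 call was lost without either siRNA 1 array.

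The 300 bases around the start of PRKG1-AS1 are shown because the start of DKK1 falls within them. They are printed on the minus strand, the strand of PRKG1-AS1, from RefSeq on GRCh38.p14, chr10:52314079-52314378, with 250 bases before the start and 50 after.
PRKG1-AS1 promoter: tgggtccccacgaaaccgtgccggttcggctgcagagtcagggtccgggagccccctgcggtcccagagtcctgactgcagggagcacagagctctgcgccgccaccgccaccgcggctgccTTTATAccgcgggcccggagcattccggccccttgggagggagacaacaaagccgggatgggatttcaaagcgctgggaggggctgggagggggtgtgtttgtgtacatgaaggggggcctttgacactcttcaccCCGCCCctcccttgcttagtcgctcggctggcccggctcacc
Capitals mark matches, on either strand, to the TATA box TATAAA and the GC box GGGCGG, here both read on the plus strand, the strand of DKK1. The starts of the 2 genes are 153 bases apart on opposite strands. The TATA box match begins 30 bases before the start of DKK1. Of 35116 RefSeq promoters of this length, 11.5% hold the TATA box letters and 45.0% the GC box letters on either strand. The other motifs searched, CCAAT (34.6% of promoters), the AP-1 site TGANTCA (7.71%) and the E-box CACGTG (7.26%), had no match in this window. The window holds 21 CG pairs, against a median of 14 over all promoters.

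Over all 15 called members, 30 neighbouring genes with a named row were read, and 16 were tested. With siRNA 1, 1 of the 16 was called (TCP11L1, beside a called member), where 4.66% of all genes were, and with siRNA 2, 3 were (RRP15, DKK1 and ANO6), where 6.83% of all genes were, of which RRP15 lay beside a member called there. Between the siRNAs 5 of the 16 were called, where 9.15% of all genes were, and TCP11L1, C17orf58, DKK1 and RRP15 differed in the direction of their member, LINC00294, LINC00674, PRKG1-AS1 and TGFB2-AS1, while ANO6 did not. The C17orf58 contrast was lost without siRNA 1 replicate 1 or either siRNA 2 array. TGFB2-AS1 was not above background on any array, and PRKG1-AS1 was called against control with neither siRNA.

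**Figure D5:**
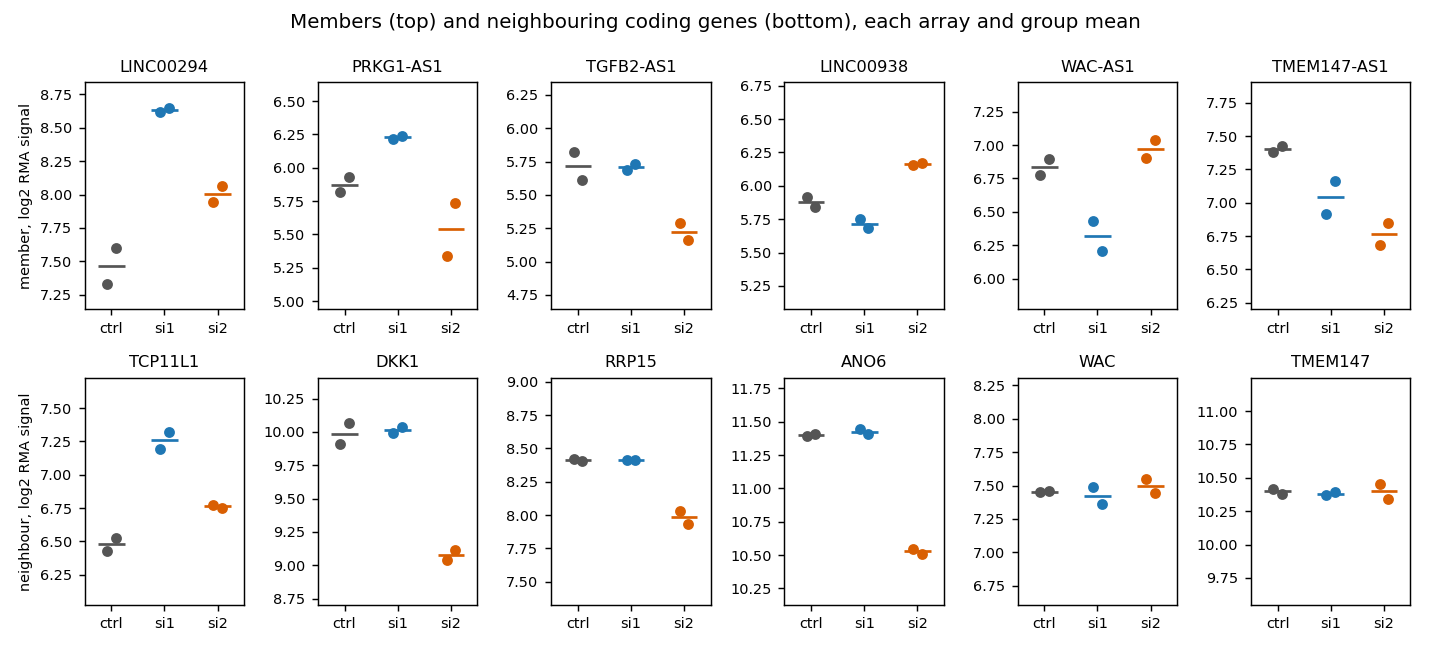
Upper panels show 6 members and lower panels a neighbouring coding gene of each, with points for the 2 arrays of the control (ctrl), siRNA 1 (si1) and siRNA 2 (si2) groups and lines at group means; vertical axes are log2 RMA signal over the same number of units in every panel. LINC00294 and TCP11L1 stand in the same order of groups, DKK1 and RRP15 are lowest with siRNA 2 like PRKG1-AS1 and TGFB2-AS1, ANO6 runs opposite to LINC00938, and the groups of WAC (7.36 to 7.55) and TMEM147 (10.34 to 10.46) overlap. TGFB2-AS1 was not above background on any array.

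Antisense and intronic members were then set beside their sense genes. Of 69 such members tested, 42 had a partner with a named row, and 33 pairs had both genes tested. The member was called in 2 pairs with siRNA 1 and 1 with siRNA 2, the partner in 0 and 3, and both in 0 by limma, or in 1 pair with siRNA 2 under the replicate block (RPL26L1-AS1 and RPL26L1). Of all genes tested, 4.66% were called with siRNA 1 and 6.83% with siRNA 2. With so few calls the pair counts do not show how often a pair changes together. At an unadjusted p under 0.05 these partners numbered 5 and 6, where 19.2% and 22.2% of all genes were. Pairs with both genes under that p numbered 1 and 2. Member and partner differed from control in the same direction in 22 of 33 pairs with siRNA 1 and 17 of 33 with siRNA 2. Across the 33 pairs, which share arrays and are not independent replicates, Pearson's r of the member's and the partner's difference was 0.14 with siRNA 1 and 0.38 with siRNA 2. With siRNA 2, the Polycomb component PCGF3 was called higher (0.52), beside -0.06 for PCGF3-AS1 (limma adjusted p = 0.783), whose start lies 76017 bases away. RPL26L1 and URB1 were called lower with siRNA 2, URB1 by -0.37 beside -0.30 for URB1-AS1 (limma adjusted p = 0.059). Leaving out any 1 array ended the URB1 and RPL26L1 calls, and leaving out control replicate 1 or either siRNA 2 array that of PCGF3. The block added MAP3K14 among the partners with siRNA 2. RPL26L1, a ribosomal protein gene whose start lies 639 bases from that of RPL26L1-AS1, measured -0.26 and -0.32 (adjusted p = 0.0378 with siRNA 2), beside -0.38 and -0.38 for RPL26L1-AS1 (adjusted p = 0.103 and 0.0857; with the block 0.0494 and 0.0391).

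Further antisense and intronic members had both siRNA arrays of a group beyond both control arrays without passing the test. PCNA-AS1, antisense to the DNA polymerase clamp PCNA, read 7.95 and 7.90 on the control arrays against 7.24 and 7.52 (siRNA 1) and 7.51 and 7.78 (siRNA 2) (-0.54, adjusted p = 0.0555, with the block 0.036, and -0.28, adjusted p = 0.232). PCNA measured -0.15 and 0.03. GABPB1-IT1, the intronic transcript tested, measured -0.42 and -0.43 and was not above background on any array. Its control mean of 5.77 alone brought it into the test, its siRNA means being 5.35 and 5.33, so these values are a description. ATP2A1-AS1 measured -0.48 with siRNA 2 (adjusted p = 0.0997; with the block 0.0154), where its mean of 5.32 was under the filter. On the higher side LHX4-AS1 measured 0.34 with siRNA 1, which is likewise a description: it was not above background on any array and entered the test through its siRNA 1 mean of 5.74, with 5.41 in both other groups. Also on that side were ARHGAP5-AS1 (0.29, adjusted p = 0.272) with siRNA 1 and TMPO-AS1 (0.35, adjusted p = 0.152) with siRNA 2. PRRT3-AS1 differed by -0.39 between the siRNAs (adjusted p = 0.0823).

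Among LINC genes on the higher side, LINC00673, an RNA studied in lung and pancreatic cancer, read 6.99 and 6.90 with control siRNA, 7.25 and 7.27 under siRNA 1, and 7.13 and 7.21 under siRNA 2. All 4 siRNA arrays were above both controls (0.32, adjusted p = 0.0555, and 0.23, adjusted p = 0.114). LINC02035 measured 0.34 with siRNA 1 (adjusted p = 0.271). LINC00667, LINC00963 and LINC02582 measured 0.29, 0.27 and 0.28 with siRNA 2 (adjusted p = 0.163, 0.0973 and 0.267).

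Of the 9 snoRNA hosts tested, limma called 0 in any of the 4 comparisons. Unadjusted p-values fell under 0.05 for 4 of them with siRNA 1 (19.2% of all genes) and for 2 with siRNA 2 (22.2% of all genes). With each siRNA 8 of the 9 values were below 0, with medians of -0.16 and -0.20, and both comparisons use the same control arrays. SNHG16 read 10.13 and 10.08 in control cells, 9.85 and 9.77 after siRNA 1, and 9.98 and 9.92 after siRNA 2. Its groups did not overlap, and it measured -0.29 with siRNA 1 (adjusted p = 0.0694; with the replicate block 0.0496). SNHG15 read 6.53 and 6.36, then 5.95 and 6.26, then 6.06 and 6.0006 (-0.34, adjusted p = 0.159, and -0.41, adjusted p = 0.0815).

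GAS5, a growth-arrest transcript that carries many snoRNAs, read 9.24 in both control arrays, then 9.21 and 9.08 (siRNA 1), then 9.14 and 8.89 (siRNA 2). All 4 siRNA arrays were below the control arrays, and the differences did not pass the test (-0.10 and -0.22, adjusted p = 0.663 and 0.239). SNHG17 and SNHG33 measured -0.18 and -0.22 with siRNA 1 and -0.20 and -0.10 with siRNA 2. SNHG5, SNHG8, SNHG10 and SNHG20 had siRNA 1 values from -0.16 to 0.04. The snoRNP proteins, which bind snoRNAs, had 13 tested members, with 3 and 3 at an unadjusted p under 0.05 (all genes 19.2% and 22.2%). Limma called 0 of the 13 with either siRNA, and their medians were -0.13 and -0.13. The replicate block called 1 of them with siRNA 2, NUFIP1, a snoRNP assembly factor (-0.33, adjusted p = 0.0534; with the block 0.0372). Among nonsense-mediated decay factors 8 were tested and 0 called by limma (2 and 2 unadjusted, all genes 19.2% and 22.2%), with medians of -0.13 and -0.08.

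MALAT1 was measured by 3 rows that disagreed. The highest row read 11.68 and 11.72 on the control arrays against 11.69 and 11.64 (siRNA 1) and 11.75 and 11.77 (siRNA 2) (-0.03, adjusted p = 0.85, and 0.06, adjusted p = 0.653). The next row measured -0.31 and -0.17, and the lowest row -0.39 and -0.30. No direction for MALAT1 is drawn from these. Of 13 tested proteins of the speckles where MALAT1 resides, limma called 0 with either siRNA (1 and 1 unadjusted, all genes 19.2% and 22.2%).

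Genes tied to the members without a row were read from lists. Of 11 tested paraspeckle proteins, partners of NEAT1, the cold-inducible RNA-binding protein CIRBP was called higher with siRNA 1 (0.33, adjusted p = 0.0391) and the cleavage factor NUDT21 lower with siRNA 2 (-0.43, adjusted p = 0.0232). The CIRBP value comes from the higher of 2 rows: their average measured 0.06 (adjusted p = 0.77), and the call was also lost on leaving out any 1 array. That of NUDT21 was lost without any array but control replicate 1. Of 6 tested genes linked to H19 and its imprinted neighbour, the mRNA-binding proteins IGF2BP2 (-0.45, adjusted p = 0.0491) and IGF2BP3 (-0.52, adjusted p = 0.0358) were called lower with siRNA 2. The IGF2BP2 call was lost without any 1 of the 6 arrays, and that of IGF2BP3 without any control or siRNA 2 array. IGF2BP3 was above background on 1 array. Its siRNA 2 mean of 5.14 was under the filter, so it entered the test through the other groups (5.66 with control siRNA and 5.76 with siRNA 1). MYC and its partners, listed for PVT1, had 8 tested genes and 0 called by limma with either siRNA (2 and 3 unadjusted, all genes 19.2% and 22.2%). MYC measured -0.19 and -0.24. With the replicate block MXD1, a MAX partner that represses MYC targets, was called with siRNA 2 (0.65, adjusted p = 0.244; with the block 0.0185). Of 7 coding p53 targets, listed because p53 acts on several of these RNAs, limma called 0 (2 and 1 unadjusted, all genes 19.2% and 22.2%).

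Members below the level needed for testing were read once without the filter. Over the 851, differences from control ran from -0.70 to 0.94 with siRNA 1 and from -0.76 to 0.65 with siRNA 2. With all named genes in the limma fit, 0 of the 851 were called with siRNA 1, where 0.262% of all named genes were, and 1 with siRNA 2, where 0.934% were. At an unadjusted p under 0.05 there were 80 members with siRNA 1 and 67 with siRNA 2, where 11.6% and 12.5% of all named genes were. The 1 called was RHPN1-AS1, which read 5.80 and 5.58 with control siRNA, 5.18 and 5.16 under siRNA 1, and 4.94 and 4.97 under siRNA 2, and was not above background. LINC00862 was called between the siRNAs (1.31% of all named genes), at 5.73 and 5.52 with siRNA 1 and 4.52 and 4.73 with siRNA 2, also below background.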

How the data were processed

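The authors deposited log2 signals of 6 arrays. The submitters' processing notes name RMA, without a version; it subtracts background, gives all arrays 1 distribution and summarises the probes of a transcript. No further normalization was applied, and array medians lay between 4.08 and 4.10. Of 53617 rows, the platform annotation names 16098 with 1 symbol, 0 with several and 37519 with none; the 14884 genes all matched RefSeq (GRCh38.p14). For 779 genes with several rows the row with the highest mean was used.

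Genes with a mean of at least 5.45 entered 1 fit over 3 groups (limma 3.58.1, R 4.3.3; lmFit and eBayes, 3 residual and 4.09 prior degrees of freedom), with Benjamini-Hochberg adjustment over 7442 genes. The contrasts were each siRNA and the mean of both against control, and siRNA 1 against siRNA 2. The fit was tested on simulated data. The number of arrays limits the precision. Background was to be taken from olfactory receptor rows, but 1 had a name, so KRTAP rows, listed as an alternative, were used.

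Members and gene lists were chosen with earlier results of these data known. Named members were MIR31HG, MALAT1, GAS5, hosts above background, all called members, the 6 largest non-overlapping differences per direction and siRNA, and the 4 widest gaps between the siRNAs per direction; neighbours, sense partners and called list genes were added. RHPN1-AS1, LINC00862, SNHG18, MIR17HG and MIR181A1HG, the sense partners PCGF3 and URB1, and members and other genes called only under the replicate block were named after their values were seen. Deviations of same-numbered arrays from their group means correlated at 0.265 (control with siRNA 1), 0.205 (control with siRNA 2) and 0.251 (siRNA 1 with siRNA 2). The main fit did not pair the arrays. An alternative fit took the replicate numbers in the titles as a block, and it is given where it changes a printed call or count.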

Additional observations from a re-analysis of the deposited data

Results flagged for a closer look

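For 13 members the effects of siRNA 1 and siRNA 2 differed in a direct limma contrast between them (adjusted p under 0.05 over 7442 genes), in which the control arrays cancel. Values are siRNA 1 minus siRNA 2 on the log2 scale. MIR31HG (-1.94, adjusted p = 0.000144) was lower with siRNA 1 alone. WAC-AS1 (-0.65), LINC00938 (-0.45) and ST20-AS1 (-0.34) were also lower with siRNA 1 than with siRNA 2. LINC00294 (0.63) was higher with both siRNAs, more so with siRNA 1. LINC00472 (0.82), PRKG1-AS1 (0.69), LINC01963 (0.67), LINC00265 (0.49), TGFB2-AS1 (0.48), LINC00999 (0.41), LINC01347 (0.32) and LINC00674 (0.29) were higher with siRNA 1 than with siRNA 2. LINC00472 and TGFB2-AS1 with siRNA 2 (means of 5.34 and 5.22) and ST20-AS1 with siRNA 1 (5.42) were under the filter. They entered the test through the groups in which they read higher. TGFB2-AS1 and ST20-AS1 were not above background on any array. Averaging rows ended the calls of LINC00999, LINC01347 and LINC00674. The contrasts of MIR31HG and LINC01963 were called with each array left out in turn. The others lost the call when at least 1 siRNA array was left out: WAC-AS1 without siRNA 1 replicate 2 or siRNA 2 replicate 2, LINC00294 without either siRNA 1 array or siRNA 2 replicate 1, LINC00265, TGFB2-AS1, LINC00999 and LINC01347 without any 1 of the 4, and LINC00674 and ST20-AS1 without any array, controls included. MYEOV itself differed by 0.30 between the siRNAs (adjusted p = 0.37). The groups hold 2 arrays each, too few for a test of single outlying arrays.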

How the results depend on the processing

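Precision is limited by 2 arrays per group and by the compression of dim signals. In 515 alternative values of named differences that were called, 362 stayed called, 153 lost the call and 0 reversed; of 2088 that were not called, 41 became called. Without the filter, members called for siRNA 1, siRNA 2, their mean and siRNA 1 against siRNA 2 were 2, 1, 1 and 2, genes called 39, 139, 26 and 195, and member medians 0.0084, -0.012, -0.0065 and 0.0067, over 977 members. With the replicate block, members called were 8, 16, 10 and 20, and genes called 420, 702, 531 and 922. Fits on the groups compared alone called 2 members and 235 genes for siRNA 1, and 3 members and 331 genes for siRNA 2. A trend and robust prior called 9 members and 581 genes for the mean. The 75th percentile filter gave a member median of -0.087 for the mean, and the KRTAP filter, chosen after seeing the data, -0.0028 between the siRNAs. Taking the 50th percentile of all rows as background put 352 members above it; the KRTAP 99th percentile gave 55. Leaving out each array in turn gave 2 to 3, 2 to 4, 2 to 4 and 2 to 13 members called, 58 to 235, 207 to 331, 68 to 239 and 226 to 618 genes called, and member medians from -0.065 to -0.018, -0.085 to -0.058, -0.085 to -0.036 and 0.019 to 0.052. A lone array was then assumed to vary like the other groups. Testing genes of every level also ended most calls of the genes named beside the members. Causes were not tested. Settings based on olfactory receptor rows were not run, since 1 such row is named.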
